A study of Mus musculus with 2 samples.

Results

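The genes described here encode the subunits, activators, inhibitor and assembly factors of the mouse proteasome, together with 1 gene that shares the naming. They were chosen by symbol alone, as the rows that begin with Psm, a letter from a to g and a digit, with Psmb8 and Psmb9 left out. This gave 47 of the 23284 gene symbols. Psmc3ip, whose product acts in meiotic recombination and is no proteasome subunit, also has such a symbol and was kept as a member. RNA sequencing had been done on 1 library of B16, a mouse melanoma line from C57BL/6, and 1 library of B16/BL6, an invasive subline of it, in a search for genes related to metastasis. B16 was grown in DMEM and B16/BL6 in RPMI, both with serum and antibiotics, so effects of the line and of the medium cannot be told apart. With 1 library per line there is no replicate error, no test between the lines was possible, and every difference below compares these libraries only.

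The proteasome is the main protease of the cytosol and nucleus and degrades proteins that carry ubiquitin chains. Its core particle is a barrel of stacked alpha and beta rings, with the proteolytic sites inside the beta rings. A regulatory particle caps the barrel: its base holds a ring of ATPases that unfold the substrate, and its lid removes the ubiquitin chain. The subunits are encoded by separate genes, and dedicated chaperones assemble the rings and the base. The transcription factor Nfe2l1 is known to raise the expression of proteasome genes when proteasome activity is short.

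Expression was given as FPKM, fragments per kilobase of a transcript, scaled by library, so levels of different genes can be set side by side within a library. A difference is the log2(FPKM + 1) of B16/BL6 less that of B16, and a measured gene reached 1 FPKM in at least 1 library (10709 genes). These are bulk cultures, in which fewer cells of a kind and less RNA per cell cannot be told apart. The FPKM of all symbols summed to 500485 in B16 and 563451 in B16/BL6. Rescaling both libraries to a sum of 1000000, called the TPM scale below, moved the median difference of all measured genes by -0.16, from 0.0053. The scale therefore bears on every direction given here, and a difference is best read against the other genes on the same scale. Read counts were not used here. The lowest FPKM values moved in steps, and the most frequent ratio of B16/BL6 to B16 among 379 genes under 0.1 FPKM in both was 0.906. Provided that FPKM was scaled library by library, this puts B16/BL6 at about 1.10 times the depth of B16. All 7 melanocyte markers were measured, but the libraries stood apart on some of them. Tyr, which encodes tyrosinase, was at 10.6 FPKM in the B16 library and 164 FPKM in that of B16/BL6. That is a ratio of 15.5, and the ratios of Pmel, Mlana and Dct were 2.15, 1.63 and 1.53. Tyrp1, Mitf and Sox10 had ratios of 1.09, 0.934 and 0.851. The part of these differences in the results below was not tested. Of the other cell types, 0 of 6 markers of fibroblasts, leukocytes and endothelium reached 1 FPKM in either library.

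The promoter sequences of 4 members are shown first, because these genes carry the contrasts described below: a catalytic subunit, an ATPase, and the lid subunits at opposite ends of the differences. Each is read 5′ to 3′ on the strand of its gene, from RefSeq on GRCm38.p6, the assembly of the mm10 build. Psmb5 is shown at chr14:54618026-54618245 (minus strand), Psmc6 at chr14:45329574-45329793 (plus strand), Psmd11 at chr11:80428365-80428614 (plus strand) and Psmd6 at chr14:14120976-14121195 (minus strand). The window of Psmd11 runs from 250 bases to 1 base before the annotated start, and those of the other genes from 250 to 31 bases before it. In GENCODE M21, exons of Psmb5, Psmc6 and Psmd6 cover 27, 36 and 39 of their 250 bases, so the 30 bases nearest the start were left out. Part of the printed stretches of Psmc6 and Psmd6 is therefore annotated exon. Capitals mark matches on either strand to TGACNNNGC, the antioxidant response element read by Nfe2l1 and Nfe2l2, and to CCGGAAG, a core of ETS factor sites.
Psmb5: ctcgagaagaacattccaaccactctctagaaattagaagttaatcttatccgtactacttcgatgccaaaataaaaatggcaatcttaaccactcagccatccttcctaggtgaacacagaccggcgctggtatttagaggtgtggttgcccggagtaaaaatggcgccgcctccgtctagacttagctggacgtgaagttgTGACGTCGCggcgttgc
Psmc6: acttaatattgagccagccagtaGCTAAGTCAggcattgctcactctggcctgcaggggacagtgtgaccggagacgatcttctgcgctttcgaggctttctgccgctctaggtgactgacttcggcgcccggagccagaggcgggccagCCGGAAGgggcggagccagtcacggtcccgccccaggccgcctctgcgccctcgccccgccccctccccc
Psmd11: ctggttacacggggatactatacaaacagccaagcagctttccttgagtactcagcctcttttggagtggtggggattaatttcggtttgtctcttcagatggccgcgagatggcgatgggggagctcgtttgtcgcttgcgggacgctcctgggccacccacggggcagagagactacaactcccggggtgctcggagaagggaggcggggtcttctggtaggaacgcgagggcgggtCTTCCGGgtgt
Psmd6: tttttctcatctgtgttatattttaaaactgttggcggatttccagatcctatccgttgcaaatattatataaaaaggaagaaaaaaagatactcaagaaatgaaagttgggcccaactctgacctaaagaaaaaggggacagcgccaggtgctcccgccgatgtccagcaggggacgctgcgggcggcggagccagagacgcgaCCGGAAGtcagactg
Psmb5 holds the first motif from 47 to 39 bases before the start. Psmc6 holds it from 227 to 219 bases before the start, on the other strand, and the ETS letters from 100 to 94 bases. Psmd11 holds the ETS letters from 11 to 5 bases before the start, on the other strand, and Psmd6 from 45 to 39 bases. A match describes letters in a window and does not show that a factor binds there.

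Most proteasome genes stood somewhat higher in B16/BL6, and the shift lay in the core particle and the base of the cap. Of the 47 members, 45 were measured, and 35 of these (77.8%) were above 0 in their difference, against 50.6% of all measured genes. Differences past 0.32, which stands for 25% higher, or below -0.32, which stands for 20% lower, were counted. Of the 45, 21 (46.7%) passed 0.32 toward B16/BL6, against 21.0% of all measured genes, and 4 (8.89%) passed it downward, against 19.7%. None reached 2-fold in either direction, where 3.31% of measured genes were higher and 3.16% lower. The median difference of the 45 was 0.28, and the differences ran from -0.62 to 0.75. Among the 8200 genes that averaged between the lowest and the highest member (5.04 to 437 FPKM), 51.3% were above 0, 20.0% passed 0.32 upward and 17.5% downward. Only the ends of that range were matched. The median level in B16 was 21.2 FPKM for these 8200 genes and 129 FPKM for the 45 members, so level was not allowed for. On the TPM scale 28 of the 45 members were above 0, 7 passed 0.32 upward and 4 downward, with a median of 0.12. The shares of all genes on that scale were 34.3% above 0, 14.2% past 0.32 upward and 33.7% downward. Together the members made up 1.17% of the summed FPKM in B16 and 1.28% in B16/BL6.

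**Figure D1:**
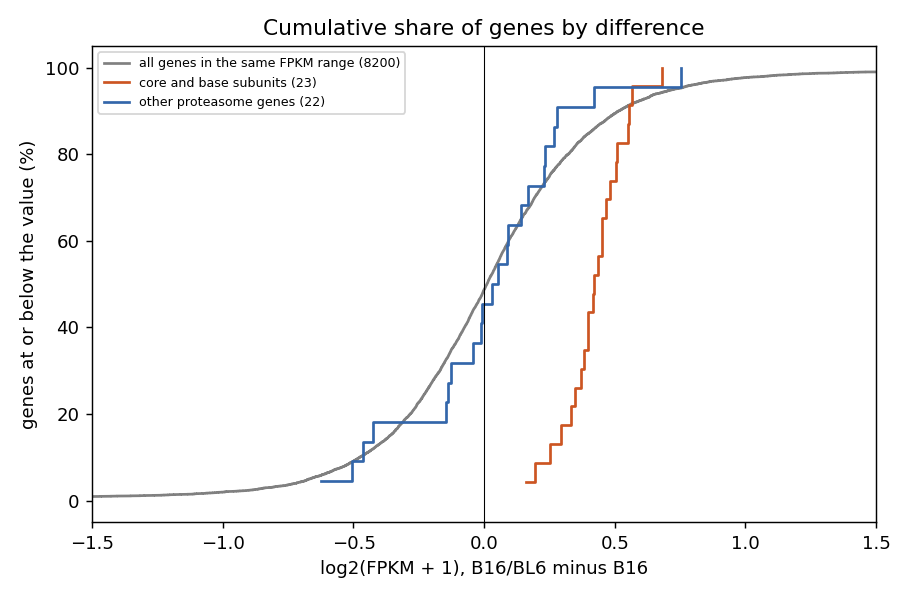
Cumulative share of genes (vertical axis, percent) by their difference between the libraries (horizontal axis, log2(FPKM + 1) in B16/BL6 minus B16). The 23 core and base subunits all lie to the right of 0, from 0.16 to 0.68. The 22 other members lie along the curve of the 8200 genes of the same FPKM range. That range matches the members at its ends only. Values are from 1 library per line, before TPM scaling.

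The alpha ring, the outer ring that gates entry to the barrel, was higher in B16/BL6 for each of its 7 genes. Psma1 stood at 152 FPKM in the B16 library and 206 FPKM in that of B16/BL6, Psma2 at 175 and 223 FPKM, and Psma4 at 93.1 and 122 FPKM. Psma6 stood at 217 and 281 FPKM, and Psma7, the most abundant of the ring, at 349 and 482 FPKM. Each of these 5 was higher in B16/BL6 by a like ratio. The largest difference of the ring was that of Psma5, at 30.2 and 48.9 FPKM, a ratio of 1.62. Psma3, the least abundant, stood at 19.1 and 26.5 FPKM. The 7 differences ran from 0.35 to 0.68 with a median of 0.44, and all 7 passed 0.32. After TPM scaling all 7 stayed above 0, from 0.18 to 0.52, and 1 of them, Psma5, passed 0.32. With the median of its own chromosome taken off each gene, Psma3 and Psma6 came to 0.29 and 0.21 and no longer passed, while the others did.

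The alpha subunits are present in equal number in the barrel, yet their transcripts were not. Psma7 was 18.2 times as abundant as Psma3 in each of the libraries. Part of the sequence of the scarcer transcripts also occurs in other annotated genes. In GENCODE M21, 54.5% of the 50-base words of the longest Psma5 transcript, 25.6% of those of Psma4 and 22.0% of those of Psma3 occur in transcripts of other genes, such as Gm8394 and Gm13835. The share was 0 for Psma1, Psma6 and Psma7 and 3.53% for Psma2. The sources used here do not give how reads that fit several genes were counted, so the levels of Psma3, Psma4 and Psma5 are uncertain, and the part this plays in the spread was not tested.

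The beta ring carries the proteolytic sites in 3 of its subunits. Psmb5, the chymotrypsin-like site (chromosome 14, 54614120 to 54617995), stood at 136 FPKM in the B16 library and 162 FPKM in that of B16/BL6. Psmb6, the caspase-like site (chromosome 11, 70525324 to 70527858), stood at 261 and 292 FPKM. Psmb7, the trypsin-like site (chromosome 2, 38588046 to 38643952), stood at 301 and 442 FPKM. The 3 catalytic genes thus differed unequally: the differences were 0.25, 0.16 and 0.55, and Psmb7 alone passed 0.32. After TPM scaling they were 0.084, -0.0085 and 0.38, so the direction of Psmb6 depends on the scale. Of the exonic bases of Psmb7, 11.8% lie under exons of Nek6 on the other strand, and 57.1% of the 50-base words of Psmb5 occur in other transcripts, the pseudogene Psmb5-ps among them.

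The other beta subunits are structural, and they were higher in B16/BL6 to different degrees. Psmb4 stood at 354 FPKM in the B16 library and 519 FPKM in that of B16/BL6 and was the most abundant member in B16/BL6. Psmb2 stood at 182 and 270.1 FPKM, and Psmb1 at 236 and 311 FPKM. Their differences of 0.55, 0.57 and 0.40 all passed 0.32, and on the TPM scale those of Psmb4 and Psmb2 still did. Psmb3 stood at 98.0 and 112 FPKM, a difference of 0.19 (0.024 on the TPM scale), and shares 55.8% of its 50-base words with other transcripts. Summed over each ring, FPKM in B16/BL6 was 1.34 times that in B16 for both the 7 alpha genes and the 7 beta genes. For all measured genes the ratio of the sums was 1.13.

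Of the variant core subunits Psmb10 alone reached 1 FPKM. Psmb10, the inducible counterpart of Psmb7 in the immunoproteasome, stood at 20.0 FPKM in the B16 library and 19.3 FPKM in that of B16/BL6, a difference of -0.045. Psmb7 was thus higher and its counterpart was not. The other inducible subunits, Psmb8 and Psmb9, which the choice of members leaves out, were both listed at 0 in B16, while B16/BL6 had 0.243 and 0.137 FPKM. The testis subunit Psma8 and the thymus subunit Psmb11 were listed at 0 in both libraries.

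**Figure D2:**
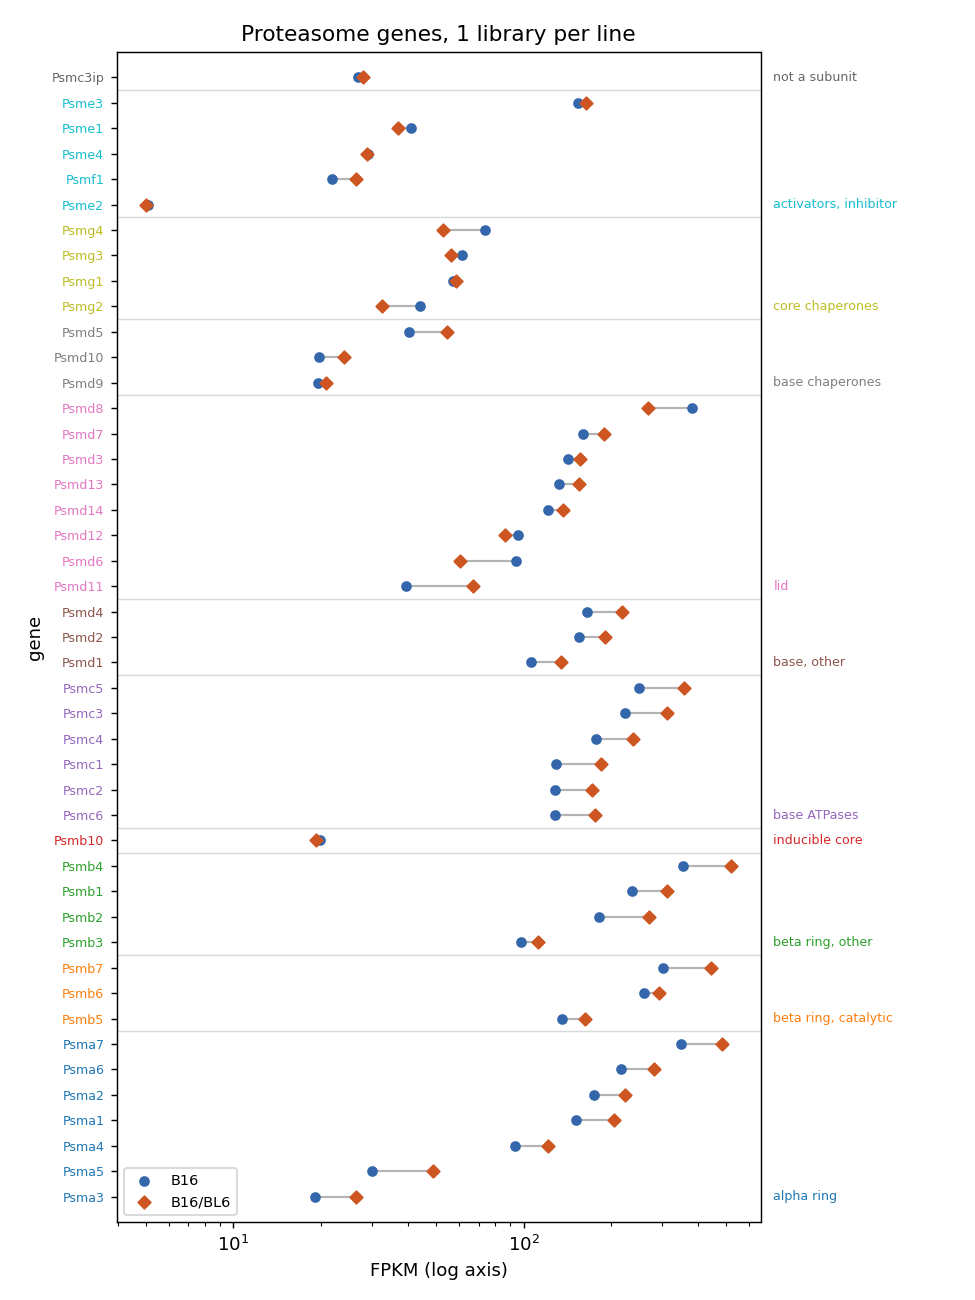
FPKM (horizontal log axis) of the 45 measured members in B16 (circles) and B16/BL6 (diamonds), 1 library each, grouped by role and joined by a grey line. The alpha ring, beta ring and base genes lie with the diamond to the right of the circle, whereas Psmd6, Psmd8, Psmg2 and Psmg4 lie the other way round.

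The ATPases of the base differed by nearly the same amount. Psmc1 stood at 129.6 FPKM in the B16 library and 185 FPKM in that of B16/BL6, Psmc2 at 129 and 172 FPKM, and Psmc3 at 224 and 313 FPKM. Psmc4 stood at 178 and 238 FPKM, Psmc5 at 251 and 356 FPKM, and Psmc6 at 129 and 176 FPKM. All 6 passed 0.32 toward B16/BL6, and their differences lay between 0.42 and 0.51, with a standard deviation of 0.041 among the 6 genes. The 6 also spanned a narrow range of levels, the highest being 1.95 times the lowest in B16 and 2.07 times in B16/BL6. TPM scaling put the differences between 0.25 and 0.34 and 2 of the 6, Psmc1 and Psmc5, passed 0.32. With the median of its own chromosome taken off each gene, the 6 differences lay between 0.315 and 0.60, and 5 passed.

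The base also holds subunits without ATPase activity, 3 of them taken by the naming rule. Psmd1 and Psmd2, the large scaffolds of the base, stood at 106 and 156 FPKM in the B16 library and at 134 and 191 in that of B16/BL6. Psmd4, a receptor for ubiquitin chains, stood at 166 and 218 FPKM. The 3 differences were 0.33, 0.30 and 0.40, of which Psmd2 stayed under 0.32. After TPM scaling they were 0.16, 0.13 and 0.23, all under it.

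The 8 lid genes taken by the naming rule were mixed, unlike the rings and the base. Its scaffold subunit Psmd11 (chromosome 11, 80428615 to 80473248) stood at 39.3 FPKM in the B16 library and 66.9 FPKM in that of B16/BL6, a ratio of 1.70 and the largest difference of all members (0.75). Psmd6 (chromosome 14, 14112185 to 14120945) stood at 93.9 and 60.6 FPKM, a ratio of 0.645 and the lowest difference of all members (-0.62). Psmd8 (chromosome 7, 29174187 to 29180673) stood at 382 and 269 FPKM, a difference of -0.50. Psmd8 was the most abundant member of all in B16, and in B16/BL6 it ranked below Psma7, Psmb4 and several others. These 3 genes kept their direction and their side of that limit on the TPM scale, at 0.59, -0.80 and -0.68. Psmd11 shares 14.0% of its 50-base words with Gm14048, while Psmd6 and Psmd8 share none with other transcripts.

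The other 5 lid genes of the naming rule lay within 0.32 of no difference. Psmd14, the enzyme that cleaves the ubiquitin chain from the substrate, stood at 122 FPKM in the B16 library and 137 FPKM in that of B16/BL6, and its partner Psmd7 at 161 and 189 FPKM. Psmd3 stood at 142 and 156 FPKM, Psmd13 at 132 and 155 FPKM, and Psmd12 at 95.8 and 86.3 FPKM. Over the 8 lid genes 5 were above 0 and 3 below, with a median of 0.15 and a standard deviation of 0.44. After TPM scaling 3 were above 0 and 5 below, with a median of -0.016, where 34.3% of all genes were above 0 with a median of -0.16. The FPKM of these 8 summed to 1167 in B16 and 1120.1 in B16/BL6, a ratio of 0.959, while the core and base genes had ratios of 1.34 and 1.35. The small lid subunit Shfm1, also called Sem1, falls outside the naming rule and stood at 1145 and 1485 FPKM, above every member, with a difference of 0.38 that passed 0.32 and of 0.20 after TPM scaling. With it the lid summed to 2312 and 2605 FPKM, a ratio of 1.13, so whether the sum lies above or below 1 rests on Shfm1. The FPKM of all measured genes also summed to a ratio of 1.13, so with Shfm1 the lid was level with the library as a whole.

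**Figure D3:**
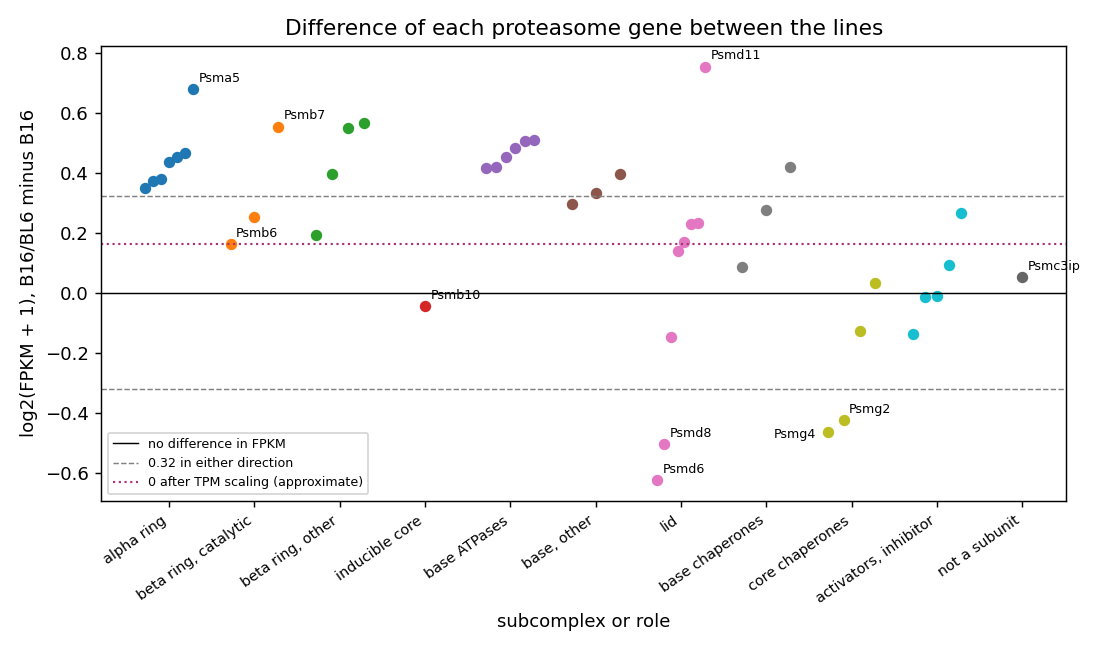
Difference of each measured member (vertical axis, log2(FPKM + 1) in B16/BL6 minus B16) by role (horizontal axis), with dashed lines at 0.32 in either direction and a dotted line where 0 falls, approximately, after TPM scaling. Each point is 1 gene in 1 library per line: the 6 base ATPases lie between 0.42 and 0.51, and the 8 lid genes of the naming rule between -0.62 and 0.75.

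The chaperones that build the core particle stood lower or level in B16/BL6. Psmg1 and Psmg2 form a dimer that assembles the alpha ring. Psmg1 stood at 57.4 FPKM in the B16 library and 58.6 FPKM in that of B16/BL6, and Psmg2 at 44.0 and 32.5 FPKM. Psmg3 and Psmg4 form a second dimer, and stood at 61.6 and 73.5 FPKM in the B16 library and at 56.3 and 53.0 in that of B16/BL6. The differences of Psmg2 (-0.42) and Psmg4 (-0.47) passed 0.32, and the median of the 4 was -0.28, in contrast to 0.44 for the alpha ring. With the median of their own chromosome taken off, Psmg2 and Psmg4 came to -0.13 and -0.14 and no longer passed. On the TPM scale all 4 were below 0, while without it Psmg1 was above 0 at 0.031. The median of the 4 on that scale was -0.45, against -0.16 for all genes, of which 34.3% were above 0. Pomp, the maturation factor of the beta ring, is no member by the naming rule and stood at 294 and 329 FPKM.

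Chaperones of the base were higher or level. Psmd5 stood at 40.4 FPKM in the B16 library and 54.4 FPKM in that of B16/BL6, a difference of 0.42 that passed 0.32, or 0.25 on the TPM scale, where it did not. Psmd10, also known as gankyrin, stood at 19.7 and 24.1 FPKM. Psmd9 stood at 19.6 and 20.9 FPKM, and 25.5% of its exonic bases lie under an antisense gene, Gm26745, whose reads cannot be told apart from those of Psmd9 unless the counting used strand.

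Activators that cap the core in place of the regulatory particle, and its inhibitor, stayed within 0.32 of no difference. Psme1 and Psme2, which form the interferon-inducible activator, stood at 40.9 and 5.07 FPKM in the B16 library and at 37.0 and 5.01 in that of B16/BL6. These partners stood far apart in level, but 59.3% of the 50-base words of Psme2 occur in other transcripts, Psme2b among them, so its level is uncertain. Psme3, the nuclear activator, stood at 154 and 164 FPKM and was the most abundant of the group. Psme4, an activator known from spermatogenesis and DNA repair, stood at 29.1 and 28.9 FPKM. Psmf1, which binds and inhibits the core in vitro, stood at 21.8 and 26.4 FPKM. The 5 differences ran from -0.14 to 0.27, with 2 above 0 and 3 below. TPM scaling left 1 above 0, that of Psmf1, with a median of -0.17 for the 5 against -0.16 for all genes. Psmc3ip, the member that is no subunit, stood at 26.9 and 27.9 FPKM.

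The split between the core and base and the other members was described after the values had been seen. Level differs between these groups as well and was not allowed for. The median in B16 was 166 FPKM for the core and base genes and 50.7 FPKM for the other measured members. All 23 core and base genes were above 0 and 19 of them passed 0.32 upward, with a median of 0.42. With TPM scaling 22 of the 23 were above 0, the exception being Psmb6, and 6 passed, with a median of 0.25. Of the 22 other measured members 12 were above 0 and 10 below, 2 passed 0.32 upward and 4 downward, with a median of 0.041. With TPM scaling 6 of these were above 0 and 16 below, with a median of -0.13. On that scale 34.3% of all genes were above 0 and their median was -0.16, so these members lay near the other genes. The order of levels was nearly the same in both libraries, with a Spearman's rho of 0.977 across the 45 genes, which share the libraries and are not replicates.

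Genes that work with the proteasome did not share one direction. A list of 28 measured genes was used, holding subunits and partners outside the naming rule, ubiquitin shuttles, the unfoldase Vcp and its cofactors, ubiquitin genes and regulators of transcription. Of these, 4 passed 0.32 toward B16/BL6 and 4 the other way, around a median of 0.10, so that neither share stood above that of all measured genes given before. With TPM scaling 1 passed it upward and 7 downward, again neither above the shares of all genes on that scale, 14.2% and 33.7%. Nfe2l1 stood at 61.9 FPKM in the B16 library and 34.7 FPKM in that of B16/BL6, a difference of -0.82 and the largest of the list, while most core and base genes stood higher. Over the pseudocounts, minima, scalings and centrings tried, the difference of Nfe2l1 ran from -0.72 (each chromosome centred) to -0.99 (TPM scale). Nfe2l2, the related factor of the oxidative stress response, stood at 72.3 and 53.4 FPKM. Ngly1 and Ddi2, a glycanase and a protease needed to activate the Nfe2l1 protein, stood at 7.03 and 14.1 FPKM in the B16 library and at 5.09 and 12.4 in that of B16/BL6. FPKM measures transcripts, so the activity of Nfe2l1 was not measured.

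The other partners past 0.32 had different roles. Usp14, a deubiquitinase bound to the base, stood at 48.5 FPKM in the B16 library and 38.1 FPKM in that of B16/BL6. Fbxo7, an F-box protein that binds the Psmf1 product, stood at 38.6 and 55.8 FPKM. The lid subunit Shfm1, with its values above, also passed. The cofactors of Vcp, Nploc4 and Ufd1l, stood at 70.5 and 32.1 FPKM in the B16 library and at 96.9 and 42.0 in that of B16/BL6. Vcp itself stood at 44.9 and 52.2 FPKM, a difference of 0.22.

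**Figure D4:**
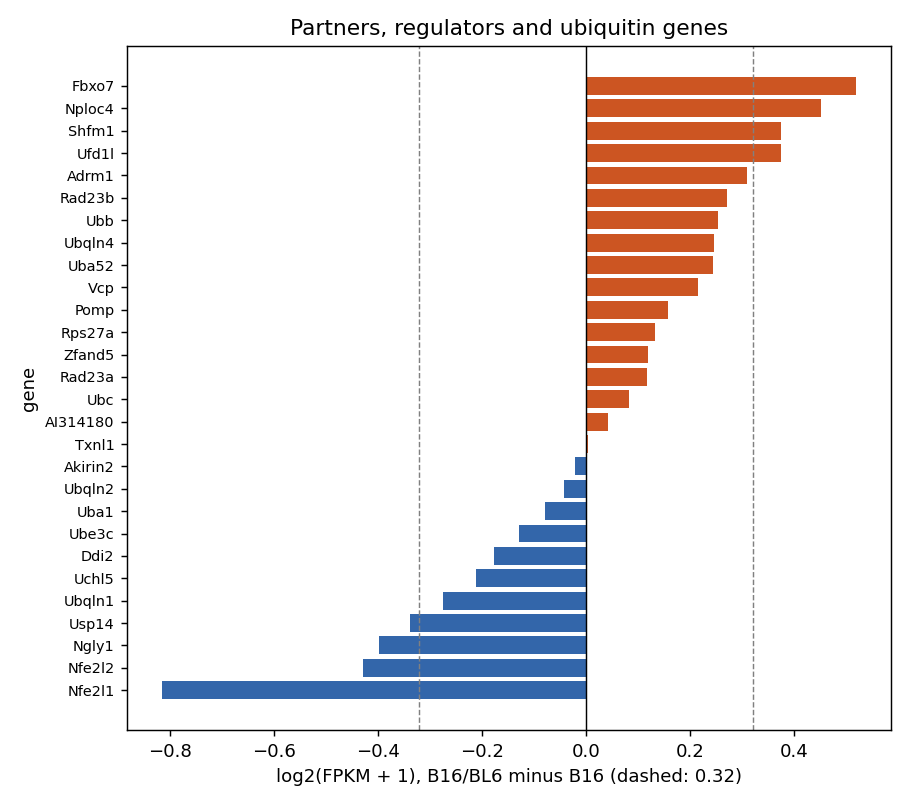
Difference (horizontal axis, log2(FPKM + 1) in B16/BL6 minus B16) of the 28 measured partner, regulator and ubiquitin genes (vertical axis), with dashed lines at 0.32 in either direction. Each bar is 1 gene in 1 library per line; Nfe2l1 has the longest bar, at -0.82, and Fbxo7 the longest toward B16/BL6, at 0.52.

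Promoters of the members were searched for the letters of 4 elements, on both strands, in the window from 250 bases before to 50 bases after the RefSeq start. Of the 47 members 39 matched the promoter table by symbol. The ETS letters CCGGAAG were found for 15 of the 39 (38.5%), against 21.9% of 7764 measured genes and 9.93% of all 27025 genes in the table. The response element TGACNNNGC was found for 6 (15.4%), against 17.2% of measured genes and 14.0% of all: these were Psmb5, Psmb6, Psmc6, Psmd9, Psmd12 and Psme4. The letters CCAAT, the box bound by NF-Y, were found for 14 (35.9%), against 43.8% and 41.1%. The letters CGCATGCG, a core of sites of NRF1, a factor distinct from Nfe2l1, were found for 2 (5.13%), against 4.86% and 2.07%. No one of these motifs contains another.

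Members with and without a match were set side by side. The 13 measured members with CCAAT were all above 0 in their difference, with a median of 0.37, and 16 of the 25 without it were above 0, with a median of 0.23. On the TPM scale these counts were 10 of 13 and 13 of 25. The shares above 0 of all measured genes with and without CCAAT were not computed. Core and base genes, all above 0 before TPM scaling, make up most of the set with CCAAT and a smaller part of the set without it. The sets were not matched for them. Whether CCAAT goes with the difference was therefore not tested. For the ETS letters the medians were 0.23 with a match (15 genes) and 0.28 without (23 genes). For TGACNNNGC they were 0.12 with a match (6 genes) and 0.31 without (32 genes). Genes with the ETS letters include both Psmd11 and Psmd6, whose sequences are printed above and whose differences were the highest and the lowest.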

How the data were processed

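The authors deposited 1 table of FPKM per library, with 1 value per gene symbol, per the file headers. Cufflinks 2.2.1, TopHat2 2.0.13, SAMtools 0.1.19, Bowtie2 2.2.3 and the build mm10 are listed by the submitters' processing notes, with no order or settings. The sources used here do not give the annotation, the scaling, the strand use in counting or the treatment of reads that fit several genes. Differences were computed over the whole table with a pseudocount of 1, keeping genes that reached 1 FPKM in either library. Count tests do not apply to FPKM, and depth was read only as a ratio between the libraries. No interval was derived.

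Members were taken by symbol alone, but the naming rule, roles, lists and motifs were set with earlier results of these data known. Every measured member is named, as are listed partners past 0.32 and Pomp and Vcp whatever their values. Ddi2 and Adrm1 were added after their values were seen, as were the complexes' members named in the closing observations. Positions came from RefSeq GRCm38.p6 by symbol or unique synonym (23040 symbols placed). Shared 50-base words and overlapping exons came from GENCODE M21. Protein sequences were not used here. Other pseudocounts, minima, scalings and centring by chromosome were tried. The calculation was tested on simulated data. Python 3.11.15, pandas 2.3.3 and NumPy 2.4.6 were used.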

Additional observations from a re-analysis of the deposited data

How the results depend on the processing

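With pseudocounts of 0.1 and 5, no minimum, a minimum of 5 FPKM, upper-quartile scaling and centring at the median of all genes, the counts of members past 0.32 and past 2-fold, the count above 0 and the median stayed close to the values reported. The number of members past 0.32 toward B16/BL6 was 7 on the TPM scale, where the median of the members was 0.12 and that of all genes -0.16. With each chromosome centred, 18 members passed 0.32 upward and 2 downward (Psmd6 and Psmd8). Psma3, Psma6, Psmc6 and Psmd4 no longer passed upward, and Psmd2 newly did. Without small RNA symbols in the sum, the members held 1.28% of FPKM in B16 and 1.40% in B16/BL6. No member past 0.32 changed direction under these alternatives. No paired analysis was possible because each line has 1 library, and leaving out a library leaves no comparison. Identity between catalytic proteins was planned and not run. With Shfm1, chosen after seeing the data, the ratio of the lid sums was 1.13 in place of 0.959, and that of all measured genes was 1.13. Levels are uncertain for transcripts that share sequence with other genes, such as Psma5, Psmb3, Psmb5 and Psme2.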

Other observations

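Other multi-subunit complexes were set beside the proteasome as values. The 8 genes of the cytosolic chaperonin CCT, which folds actin and tubulin, had a median difference of 0.25 and a standard deviation of 0.30, from -0.11 for Cct4 to 0.72 for Cct2. The 9 measured genes of the COP9 signalosome, which is related to the proteasome lid in architecture, had a median of 0.24 and a standard deviation of 0.16. Most genes of both complexes were thus also higher in B16/BL6: 7 of the CCT genes and 8 of the COP9 genes were above 0. Of these, 2 and 1 passed 0.32. On the TPM scale the medians were 0.077 and 0.071, with 5 and 6 genes above 0, against a median of -0.16 for all genes. The 6 proteasome ATPases had a standard deviation of 0.041 and the 8 lid genes of the naming rule one of 0.44. With 1 library per line, whether these spreads differ beyond measurement error was not tested.

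The 47 members lie on 16 chromosomes. The 6 measured members on chromosome 2 were all above 0, with a median of 0.44, and the 9 on chromosome 11 had a median of 0.14. Across the 45 measured members, which share both libraries, Spearman's rho of the difference was 0.44 with the mean FPKM and 0.11 with the length of the longest transcript.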
